A study of Mus musculus with 12 samples.

Results

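Fabp7, Fabp5 and Fabp3 are the fatty acid binding proteins that mouse brain cells are best known to make, and their RNA was followed here in striatal cells enriched for astrocytes. They were chosen by name, as 3 of the 31053 gene rows of the count table, and all 3 were in it. Cells of the striatum of wild-type mice, whose strain the labels give as mixed and the methods of the study as C57BL/6Jax for brain tissue, were purified with magnetic beads against ACSA2, an astrocyte surface antigen, and captured with the 10x Genomics 3′ v3.1 chemistry, in which every RNA molecule counted carries a unique molecular identifier (UMI). The 12 samples were sequencing runs of 4 libraries, of which 2 were postnatal and 2 came from mice of 3 months (3m). The title of postnatal replicate 1 gives day 7 and its age tag day 3, the labels of postnatal replicate 2 give the reverse, and both were therefore treated as 1 postnatal group. The paper of the study gives day 3 for its early postnatal striatal cells. It describes 3 preparations of each age, whereas 2 libraries of each were analysed here. According to the methods of the study, a preparation pooled several animals, so a library is a pool. The p-values of the fits refer to a spread between pools that was estimated in part from all tested genes.

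Fatty acid binding proteins are small cytosolic proteins that hold a long-chain fatty acid in a barrel-shaped pocket and carry it between membranes, enzymes and the nucleus. Fabp7, also called brain lipid binding protein, marks radial glia and immature astrocytes and prefers polyunsaturated fatty acids. Fabp5, the epidermal type, is found in many tissues and in glia and neurons, and Fabp3, the heart type, is known from muscle and from neurons.

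In GENCODE M21 (assembly GRCm38, of which mm10 is the UCSC name), Fabp7 lies on the plus strand of chromosome 10 from 57784881 to 57788450, Fabp5 on chromosome 3 from 10012548 to 10016607 and Fabp3 on chromosome 4 from 130308595 to 130315463. Each is a protein-coding gene of 4 exons in its main transcript, with 132 codons in Fabp7, 135 in Fabp5 and 133 in Fabp3, the stop codon not counted. The first 90 coding bases of the main transcripts are shown because they let the likeness of the members be seen. In Fabp5 and Fabp3, capitals mark bases paired with the same base of Fabp7 in a pairwise alignment of the coding sequences, and in Fabp7 those shared with both.
Fabp7: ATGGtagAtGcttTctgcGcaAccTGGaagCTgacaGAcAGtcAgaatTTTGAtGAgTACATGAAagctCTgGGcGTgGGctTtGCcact
Fabp5: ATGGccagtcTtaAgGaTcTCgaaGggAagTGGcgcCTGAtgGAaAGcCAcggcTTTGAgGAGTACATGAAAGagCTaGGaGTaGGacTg
Fabp3: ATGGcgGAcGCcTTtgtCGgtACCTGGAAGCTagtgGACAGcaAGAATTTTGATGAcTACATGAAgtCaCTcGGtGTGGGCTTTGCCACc
Over the whole coding sequence, Fabp7 was identical to Fabp3 at 66.4% and to Fabp5 at 55.4% of the aligned columns. The longest run of bases that the transcripts of any pair of members shared was 20, so their reads can be told apart. Processed pseudogenes are closer. Fabp5l2 was identical to the coding sequence of Fabp5 at 94.1% of columns and Fabp3-ps1 on chromosome 10 to that of Fabp3 at 98.5%, and neither had a row of its own in the table. How reads matching both were counted is not given in the sources used here, which leaves the counts of Fabp5 and above all of Fabp3 uncertain to that extent.

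The table held 7185335 to 11501049 UMIs per library. After filters on mitochondrial share and detected genes, 555 and 723 cells remained in postnatal replicates 1 and 2, and 1120 and 719 in 3m replicates 1 and 2. Postnatal replicate 2 and 3m replicate 2 shared 95 barcodes, against at most 2 for any other pair of libraries, and the far smaller cell of a shared barcode was left out. Cells were assigned to classes by markers that did not include a member, and are called X-like because the names rest on markers alone. The label of purified astrocytes held for 375 and 526 cells of the postnatal libraries (67.6% and 72.8%) and for 309 and 298 cells at 3m (27.6% and 41.4%). Oligodendrocyte-like cells were 49.5% and 40.5% of the cells at 3m, and 1 and 0 cells in the postnatal libraries. No class was led by the markers of another, and 311 of 3117 cells stayed unassigned.

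Fabp7 was lower by more than an order of magnitude in astroglia-like cells at 3m. Its level, as UMIs scaled to a fixed total of the class (CPM), was 11444 and 16488 in postnatal replicates 1 and 2. At 3m it was 387 in both libraries. The groups did not overlap, and the spread between the postnatal libraries (SD 3567, n = 2) was far below the distance between the ages. In sums of raw counts per library, the edgeR quasi-likelihood test gave a log2 fold change, 3m over postnatal, of -4.88 ± 0.39 (SE) with a Benjamini-Hochberg adjusted p of 0.0011 over 11708 genes. Genes were called where the adjusted p did not exceed 0.05 and the log2 fold change was 1 or more in either direction. At 3m, 11.1% of the tested genes were called lower and 14% higher.

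Fabp5 was lower at 3m in the same cells, by 1.82-fold, which did not meet the rule on size. It stood at 3674 and 2808 CPM in the postnatal libraries and at 1428 and 1511 CPM at 3m, again without overlap. The log2 fold change was -0.86 ± 0.27 (adjusted p = 0.0463, edgeR). Its place against the threshold depended on the scaling, since TMM factors set the median change of all genes at 0.0027 and the plain totals set it at -0.28, where Fabp5 was at -1.14 (adjusted p = 0.013) and was called. It was also called without postnatal replicate 2 (-1.09), its adjusted p was 0.292 and 0.281 without 3m replicate 1 or 2, and leaving out astroglia-like cells with a UMI of an oligodendrocyte marker, an alternative chosen after seeing the data, gave -0.66 (adjusted p = 0.0898). For Fabp7, the call held under all of these.

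Fabp3 was scarcely detected in astroglia-like cells. It had 13 and 20 UMIs in the postnatal libraries (3.35 and 2.39 CPM) and 1 and 4 UMIs at 3m (0.453 and 1.53 CPM). These counts were below the filter on low counts, so that 2 of the 3 members were tested in this class, and of these Fabp7 was called.

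**Figure D1:**
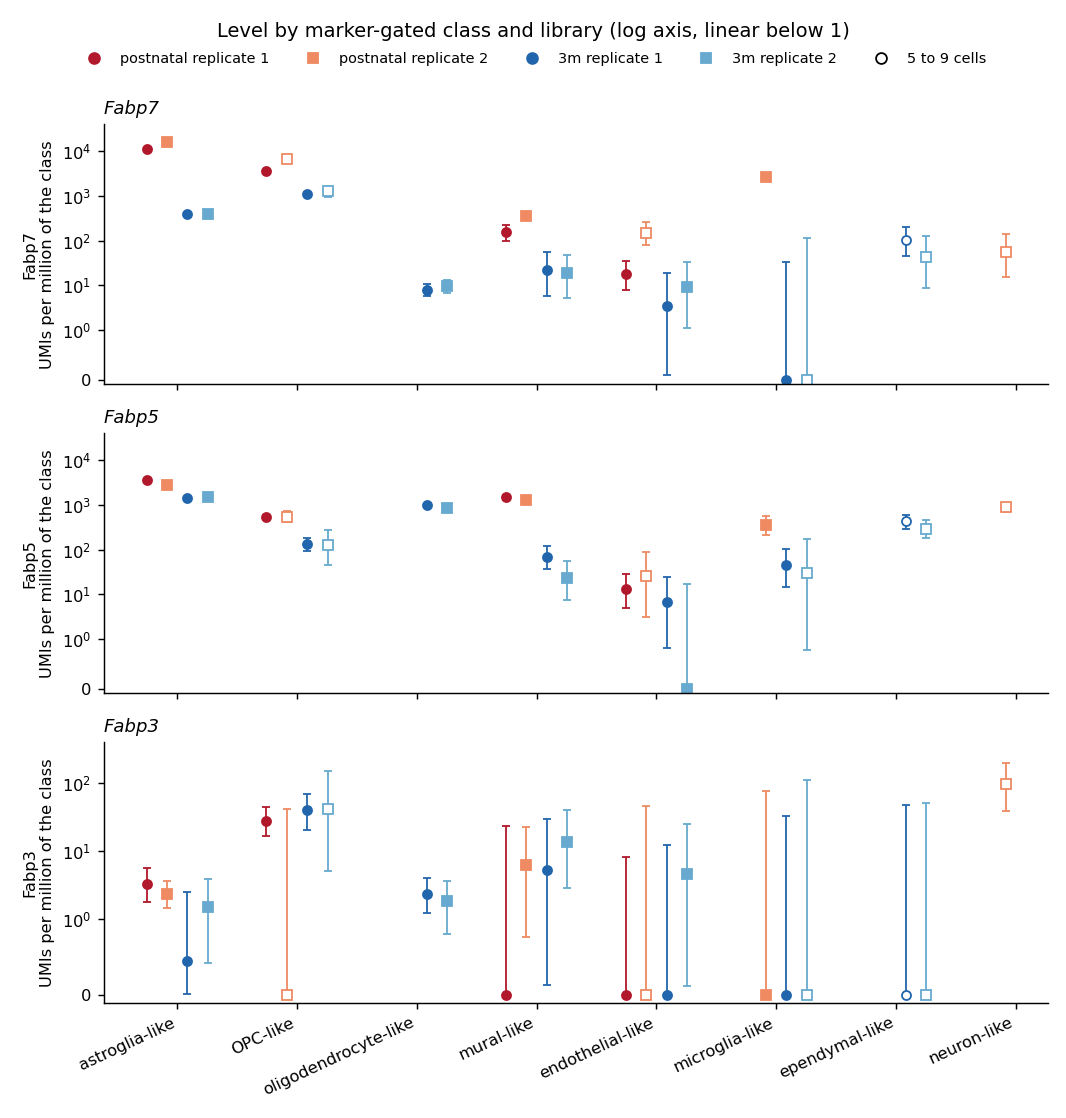
Level of Fabp7, Fabp5 and Fabp3 (CPM of the class, log axis that is linear near 0, open symbols for 5 to 9 cells) in each class with at least 5 cells, by library, with exact 95% Poisson intervals that cover counting error only. Fabp7 in astroglia-like cells drops from 11444 and 16488 to 387 and 387, Fabp5 in mural-like cells from 1488 and 1318 to 69.9 and 23.3, and Fabp3 stays under 100 throughout.

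The change of Fabp7 was a shift of the whole astroglia-like population. Cells were thinned at random to 2000 UMIs each, which left out 66 and 25 shallower astroglia-like cells in the postnatal libraries and 31 and 38 at 3m. At this depth, Fabp7 was detected in 99.4% and 99.6% of postnatal cells, with medians of 22 and 33 UMIs, and in 42.4% (Clopper-Pearson 95% interval 36.6 to 48.5) and 44.6% (38.5 to 50.9) at 3m, with medians of 0. The highest cell of the 3m libraries held 15 and 6 UMIs, below the postnatal medians. Without thinning, the shares were 99.7%, 100%, 69.3% and 71.8%. With 2 libraries against 2, the exact two-sided permutation test cannot go below p = 0.333, which is what it gave.

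Fabp5 was detected in most astroglia-like cells at both ages, and in fewer at 3m. It was found at 2000 UMIs in 97.7% and 96.4% of postnatal cells and in 86.3% (81.7 to 90.1) and 85.4% (80.5 to 89.4) of cells at 3m. Median counts were 7 and 4 UMIs in the postnatal libraries and 2 and 2 at 3m, so the distributions of the ages overlapped widely. Those of Fabp7 overlapped less, with 8.09% and 3.79% of postnatal cells and 2.52% and 3.46% of cells at 3m at 4 to 7 UMIs. The permutation p of Fabp5 was again the smallest possible, 0.333. Fabp3 was detected in 1 of 309 and 4 of 501 postnatal cells and in 0 of 278 cells at 3m in replicate 1, which allows up to 1.08% of cells with a UMI at this depth, and 1 of 260 in replicate 2. Without thinning, 1 of 309 cells of 3m replicate 1 held a Fabp3 UMI, and these shares do not limit the share of cells that express the gene.

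**Figure D2:**
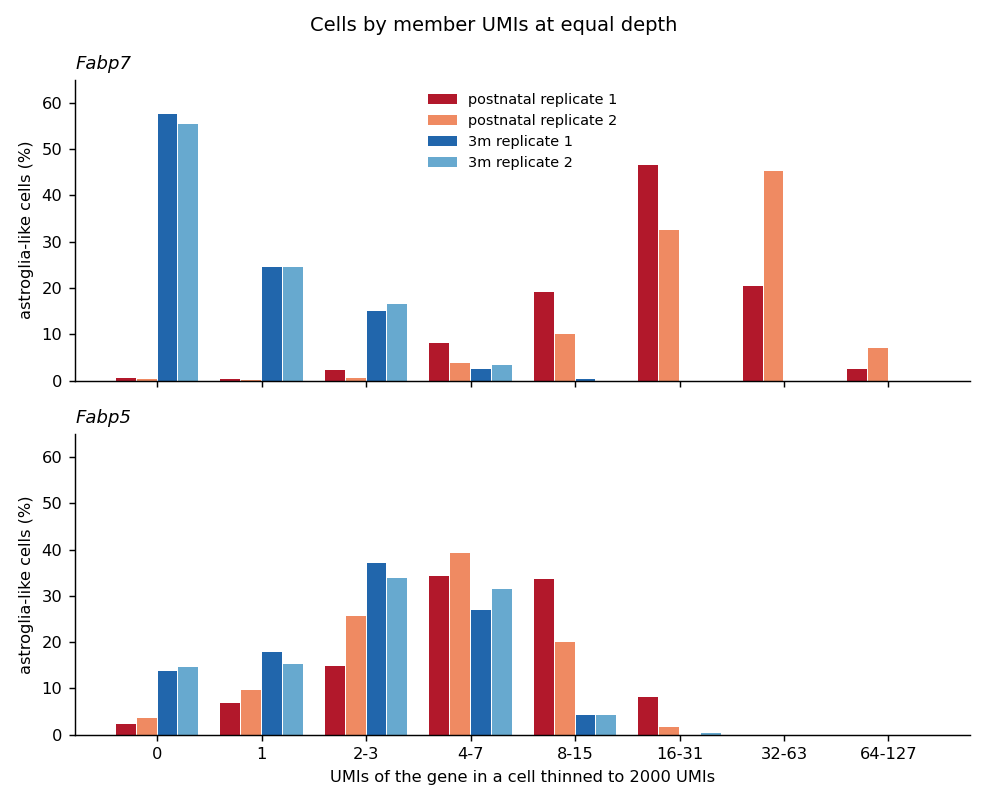
Share of astroglia-like cells (%) by the number of Fabp7 or Fabp5 UMIs in the cell after thinning to 2000 UMIs, for each of the 4 libraries. Fabp7 moves from a peak at 16 to 63 UMIs in the postnatal libraries to a peak at 0 at 3m (57.6% and 55.4% of cells), whereas the peak of Fabp5 moves from 4 to 7 UMIs to 2 to 3 UMIs.

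At equal depth, nearly all postnatal cells held UMIs of both genes, and fewer did at 3m. Of thinned postnatal astroglia-like cells, 97.7% and 96.0% held UMIs of both, while at 3m 38.1% and 38.8% held both, 48.2% and 46.5% held Fabp5 without Fabp7, and 4.32% and 5.77% held Fabp7 without Fabp5. Between cells of a library, log2 counts of the pair correlated at r = 0.46 (n = 309) and 0.35 (n = 501) in the postnatal libraries and at 0.05 (n = 278) and 0.15 (n = 260) at 3m. The shares at 3m depend on the depth of 2000 UMIs, and the correlations describe cells that share a library and its free RNA, and sparse counts at 3m leave the last pair without weight.

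Within the postnatal astroglia-like cells, Fabp7 stood lower in those with at least 3 UMIs of 10 cycling genes, all of which were called lower at 3m in astroglia-like cells (median log2 fold change -3.50). It was at 7872 CPM in 31 cycling cells against 12014 in the other 344 of replicate 1, and at 12131 in 80 cycling cells against 18570 in the other 446 of replicate 2. Within each library, cycling cells were the lower ones. The fit with the library as a block gave -0.57 ± 0.17 on the log2 scale (adjusted p = 0.0223, edgeR), short of the size required for a call, which 16.3% of genes met in either direction. The adjusted p was 0.305 at a gate lead of 0.4 and 0.385 without the library block, and a cut of 1 cycling UMI gave -0.28 (adjusted p = 0.225). Cycling cells were deeper, with medians of 13502 and 27918 UMIs against 8896.5 and 11553, and the part of depth in this difference was not tested. Fabp5 was at 3236 against 3744 CPM in replicate 1 and at 2899 against 2765 in replicate 2, with a log2 difference of -0.03 ± 0.17 (adjusted p = 0.932). Without the cycling cells, the age difference of Fabp7 was -5.13 ± 0.36 and that of Fabp5 -0.88 ± 0.26.

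Cells of the oligodendrocyte lineage parted the pair. In precursor cells (OPC-like), Fabp7 stood at 3571 (66 cells) and 6630 CPM (7 cells) in the postnatal libraries and at 1103 (45 cells) and 1264 CPM (7 cells) at 3m. It was below the level of astroglia-like cells of the same library in both postnatal libraries, and above it in both libraries at 3m. Fabp5 was at 529 and 552 CPM and then at 130 and 126 CPM, below astroglia-like cells in all 4 libraries. Because 2 libraries held only 7 OPC-like cells, the planned test with at least 10 was not possible, and one with at least 5 was added after seeing the data. It gave -2.15 ± 0.30 for Fabp7 (adjusted p = 0.001) and -2.10 ± 0.30 for Fabp5 (adjusted p = 0.00114), in a fit where 6.82% of 4425 genes were called lower. Both calls were lost without postnatal replicate 2 (adjusted p = 0.234 each), where edgeR called 0 genes at all and 1303 had an unadjusted p under 0.05, and that of Fabp5 without 3m replicate 1 (0.0503).

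The age difference of Fabp7 was smaller in OPC-like than in astroglia-like cells. The interaction term, OPC-like minus astroglia-like, was 2.52 ± 0.38 (adjusted p = 1.29e-08) for Fabp7 and -1.42 ± 0.43 (adjusted p = 0.0249) for Fabp5, in a fit where 5.01% of 11471 genes were called. Without 3m replicate 1 neither was called, with 2.50 (adjusted p = 0.173) and -1.69 (0.568), and Fabp5 was not called without 3m replicate 2 either (-1.26, 0.483). In a comparison of OPC-like with astroglia-like cells over the 2 libraries with at least 10 of both (postnatal replicate 1 and 3m replicate 1, where 15.3% of genes were called in either direction), Fabp5 differed by -3.62 ± 0.74 (adjusted p = 0.00825), a call lost without the library block (-3.34, adjusted p = 0.135). Fabp7, with opposite directions in these libraries, gave -0.62 ± 1.07 (0.788).

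Fabp3 was highest in OPC-like cells among the classes with at least 10 cells, at a low level. It had 19 UMIs in 66 cells of postnatal replicate 1 (28.5 CPM) and 12 UMIs in 45 cells of 3m replicate 1 (40.1 CPM). In the smaller groups it had 0 UMIs of 88690, which allows up to 33.8 CPM, and 2 UMIs (42.1 CPM). Against astroglia-like cells, the fit gave 3.56 ± 0.73 (adjusted p = 0.00839), and without the library block 3.52 (adjusted p = 0.0569). The level in 7 neuron-like cells of postnatal replicate 2 was 96.9 CPM, from 7 UMIs.

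Oligodendrocyte-like cells at 3m held Fabp5 and almost no Fabp7. Fabp5 was at 1011 and 835 CPM in 554 and 291 cells, and was detected at 2000 UMIs in 76.7% and 72.3% of them. Fabp7 was at 7.82 and 9.56 CPM and was detected in 1.47% and 1.38%. Against astroglia-like cells of the same libraries, Fabp7 differed by -5.49 ± 0.12 on the log2 scale (adjusted p = 5.09e-13) and was called, as were 25.8% of 11583 genes in this direction. Fabp5 differed by -0.68 ± 0.09 (adjusted p = 2.93e-05), short of the required size.

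As a guide to free RNA in the droplets, members were set against 6 other astroglia genes that the gate did not use (Cldn10, Ndrg2, Plpp3, Mfge8, Mt3 and Htra1). Within a library, RNA from lysed astroglia would hold a member and these genes in the ratio seen in astroglia-like cells, although a class that makes some of the 6 itself would have a lower ratio. Of these genes 3 were called higher at 3m (Cldn10, Htra1 and Plpp3, median of the list 1.33), so the ratio is read within a library only. In astroglia-like cells at 3m, there were 2.00 and 2.12 Fabp7 UMIs per 100 UMIs of these genes, and in oligodendrocyte-like cells 1.68 and 2.08, close to or below the ratio of astroglia-like cells. For Fabp5 the ratio was 217 and 181 UMIs per 100 in oligodendrocyte-like cells against 7.38 and 8.28, far above it. Neither empty droplets nor doublets were measured, and the part of free RNA was not tested. The ratio of astroglia-like cells does not describe free RNA of other classes. At 3m, 57.6% and 45.9% of the Fabp5 UMIs lay in oligodendrocyte-like cells. In OPC-like cells of 3m replicate 1, Fabp7 was at 54.4 per 100, far above the ratio of astroglia-like cells, while Fabp5 was at 6.43 against 7.38. These OPC-like cells held the 6 genes at 2029 CPM, against 467 in oligodendrocyte-like and 307 in endothelial-like cells, and held Fabp5 at 130 CPM (exact Poisson interval 92.7 to 178) against 6.82 (0.826 to 24.6) in endothelial-like cells. How much of their Fabp5 was free RNA cannot be read from the ratio. In postnatal replicate 1 it was at 57.2 against 33.7.

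**Figure D3:**
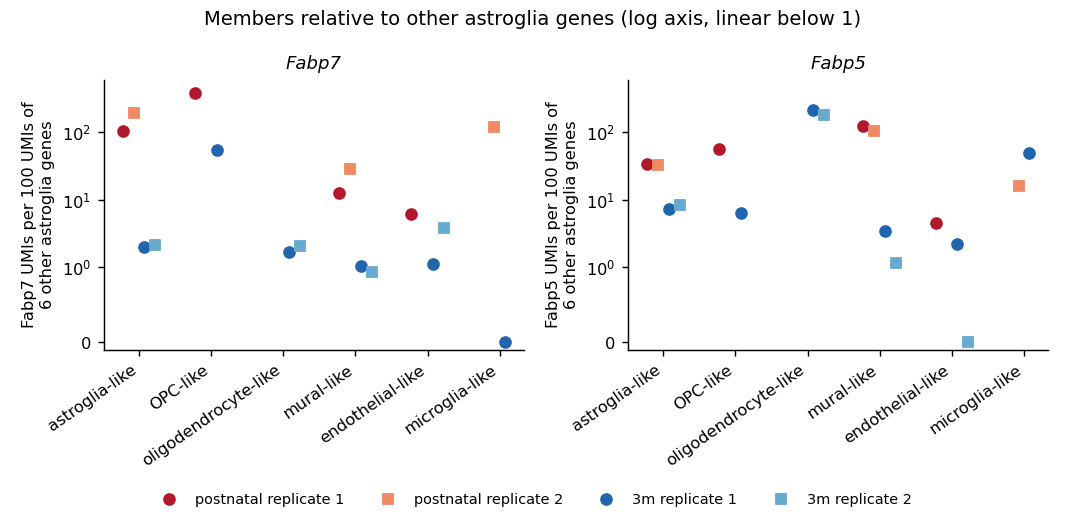
Fabp7 (left) and Fabp5 (right) UMIs per 100 UMIs of 6 other astroglia genes (log axis, linear below 1) in each class with at least 10 cells, by library. Fabp7 in oligodendrocyte-like cells (1.68 and 2.08) lies near the astroglia-like points of the same libraries (2.00 and 2.12), whereas Fabp5 in oligodendrocyte-like cells (217 and 181) and in postnatal mural-like cells (123 and 104) stands above them.

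Mural-like cells, the pericytes and smooth muscle cells of vessels, were the class in which Fabp5 changed most between the ages among those tested. It was at 1488 and 1318 CPM in 20 and 28 postnatal cells, and at 69.9 and 23.3 CPM, from 13 and 5 UMIs, in 57 and 45 cells at 3m. The ages did not overlap. In a comparison added after these levels had been seen, the log2 fold change was -4.88 ± 0.37 (adjusted p = 2.46e-04, edgeR), where 4.74% of 3946 genes were called lower. Leaving out 3m replicate 1 gave -5.83 and leaving out 3m replicate 2 gave -4.26, both called. The interaction with age in astroglia-like cells was -4.08 ± 0.41 (adjusted p = 9.22e-18), in a fit with 5.99% of 11083 genes called. With a library left out, it ranged from -5.15 (3m replicate 1) to -3.42 (3m replicate 2) and was called each time.

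Summed pericyte genes of the mural-like class were higher at 3m. The sums of smooth muscle genes nearly met, at 6372 CPM in postnatal replicate 2 and 6455 in 3m replicate 1. The pericyte genes Kcnj8, Rgs5, Higd1b and Vtn summed to 21265 and 17593 CPM in the postnatal libraries and to 38036 and 36722 at 3m, and the smooth muscle genes Acta2, Myl9, Tagln and Myh11 to 1704 and 6372 and then to 6455 and 12500. All 8 genes rest on cells chosen by mural markers, and the part of these differences in the change of Fabp5 was not tested. Postnatal mural-like cells held 123 and 104 Fabp5 UMIs per 100 of the 6 astroglia genes, above the 33.7 and 33.3 of astroglia-like cells, and those at 3m held 3.40 and 1.18, below the 7.38 and 8.28. Fabp7 was at 153 and 365 CPM in postnatal and at 21.5 and 18.6 CPM in 3m mural-like cells (-3.68 ± 0.55, adjusted p = 0.00315), a change of -2.85 without postnatal replicate 2. With 12.6 and 28.9 per 100 against 105 and 195 in astroglia-like cells of the same libraries, its ratio was below theirs. Mural-like cells held the 6 genes at 1214 and 1262 CPM in these libraries, and the part of free RNA in their Fabp7 was not tested. In postnatal replicate 2, 70 of its 116 UMIs came from 1 cell, without which the level was 147 CPM.

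Endothelial-like cells held few UMIs of the members. Fabp5 had 6 and 2 UMIs in the postnatal libraries and 2 and 0 UMIs at 3m, the 0 allowing up to 13.7 CPM. Fabp7 had 8 UMIs (17.7 CPM) and 12 UMIs (151 CPM, in 5 of 6 shallow cells with a median of 1264 UMIs) in the postnatal libraries and 1 and 2 UMIs (3.41 and 9.16 CPM) at 3m. Fabp3 had 1 UMI in 3m replicate 2 and 0 in the others. Against astroglia-like cells of the 3 libraries with at least 10 cells of both, the edgeR test called Fabp7 (adjusted p = 5.82e-06) and Fabp5 (1.54e-06) lower, as it did 19.1% of 11493 genes. Their fitted changes of -8.24 and -8.32 depend on the prior count, as the counts are near 0, and that of Fabp7 was -6.34 without postnatal replicate 1 and -8.80 without 3m replicate 2. The test between ages was not run, as postnatal replicate 2 held 6 such cells.

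Other classes were small. Microglia-like cells at 3m had 0 Fabp7 UMIs in 21 and 7 cells, allowing up to 26.6 and 91.5 CPM, whereas 16 shallow microglia-like cells of postnatal replicate 2 (median 1453 UMIs) held 2707 CPM. That was 121 per 100 UMIs of the 6 astroglia genes, below the 195 of astroglia-like cells of that library, and the part of free RNA was not tested. Ependymal-like cells at 3m, 7 in each library, held 429 and 296 CPM of Fabp5 and 104 and 42.4 CPM of Fabp7.

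By the mean of the libraries, and among classes with at least 10 cells in both libraries, the order of Fabp7 at 3m was astroglia-like (387), mural-like (20.05), oligodendrocyte-like (8.69) and endothelial-like cells (6.29), where the last pair overlapped. The mural-like place rests on 4 UMIs in each library. Its exact Poisson intervals (5.86 to 55.0 and 5.07 to 47.6 CPM) include the oligodendrocyte-like levels of 7.82 and 9.56 CPM. OPC-like cells, left out of this order because 3m replicate 2 held 7 of them, stood above astroglia-like cells with a mean of 1184. The order of Fabp5 was astroglia-like (1470), oligodendrocyte-like (923), mural-like (46.6) and endothelial-like cells (3.41), with no overlap between neighbours. In the postnatal libraries, where only astroglia-like and mural-like cells qualified, astroglia-like cells were above mural-like cells for Fabp7 (13966 against 259) and for Fabp5 (3241 against 1403). In bulk terms, the whole libraries mixed these classes, and a lower total can then come from fewer cells of a type or from less RNA per cell, which cannot be told apart there.

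Summed over all cells of a library, Fabp7 was at 6951 and 12772 CPM in the postnatal libraries and at 141 and 152 CPM at 3m, and Fabp5 was at 2273 and 2251 and then at 983 and 986. Fabp3 had 49, 72, 28 and 18 UMIs (7.01, 6.39, 2.85 and 2.28 CPM). The ages did not overlap for any of the 3, but the share of all genes without overlap was not counted, so this has no background. The log2 fold changes were -5.92 ± 0.40 (adjusted p = 3.53e-04), -1.05 ± 0.15 (0.00379) and -1.22 ± 0.31 (0.0239), so that all 3 were called lower, as were 13.4% of 14282 genes. The call of Fabp3 was lost without 3m replicate 1 or 2 (adjusted p = 0.0966 and 0.153).

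The classes that held these UMIs differed between the ages, as did the share of oligodendrocyte-like cells. At 3m, 57.6% and 45.9% of all Fabp5 UMIs lay in oligodendrocyte-like and 32.7% and 50.5% in astroglia-like cells. In the postnatal libraries, 89.6% and 92.7% of Fabp5 and 91.3% and 95.9% of Fabp7 lay in astroglia-like cells. Of the Fabp7 UMIs at 3m, 61.7% and 84.1% lay in astroglia-like cells and 23.8% and 4.996% in the 45 and 7 OPC-like cells. Of the postnatal Fabp3 UMIs, 26.5% and 27.8% lay in astroglia-like, 38.8% and 0% in OPC-like and 32.7% and 59.7% in unassigned cells. At 3m, 46.4% and 44.4% lay in oligodendrocyte-like and 42.9% and 11.1% in OPC-like cells.

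**Figure D4:**
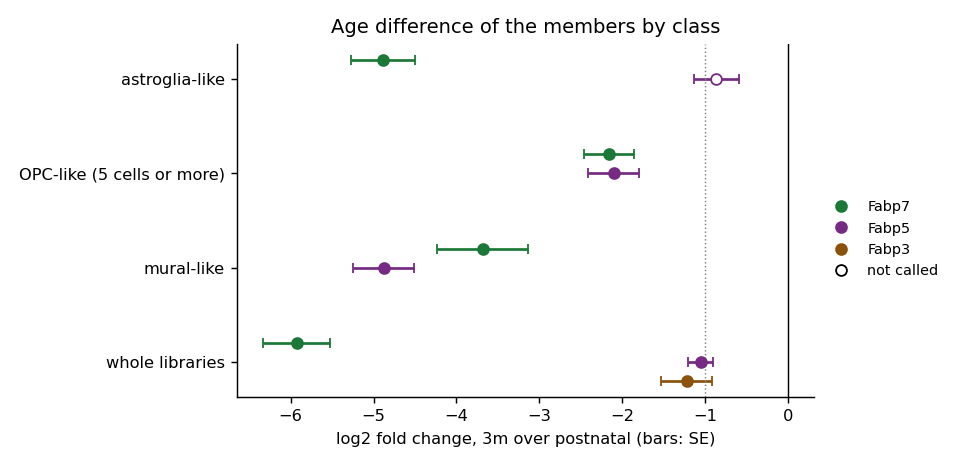
Log2 fold change of the members, 3m over postnatal, with its SE, from edgeR fits of sums per library (2 libraries per age) in astroglia-like, OPC-like and mural-like cells and in whole libraries. Filled points were called, the dotted line marks the required size, and Fabp5 ranges from -0.86 in astroglia-like to -4.88 in mural-like cells.

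Among other genes of the wider family of intracellular lipid binding proteins, 5 had no UMI (Fabp1, Fabp2, Fabp6, Fabp9 and the myelin protein gene Pmp2), and 5 had 1 to 15 UMIs in all cells (Crabp1 15, Fabp4 10, Crabp2 4, Rbp7 2 and Fabp12 1). Rbp2 had 74, of which 38 were in ependymal-like cells. None of these 11 genes had enough counts in astroglia-like cells to be tested with age.

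Genes that handle fatty acids around these carriers changed in both directions. Of 14 genes of fatty acid uptake and activation, 8 were tested in astroglia-like cells, and 5 were called higher and 1 lower at 3m (14% and 11.1% of all tested genes), with a median log2 fold change of 1.43 against 0.0027 over all genes. Acsl3, an acyl-CoA synthetase, was at 332 and 174 CPM in the postnatal libraries and at 2240 and 2155 at 3m (3.39 ± 0.38, adjusted p = 0.00215). Acsl6, of the same enzyme family, changed by 2.76 ± 0.32 (adjusted p = 0.00234) and Mfsd2a, a transporter of lysophospholipids that carry docosahexaenoic acid, by 3.12 ± 0.31 (0.00158). The gene called lower was Dbi, which encodes the acyl-CoA binding protein, at 9652 and 7680 CPM and then at 2253 and 1961 (-1.76 ± 0.32, adjusted p = 0.00842).

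Of 17 genes of fatty acid oxidation, all were tested and 2 were called, Hadhb (1.64 ± 0.19, adjusted p = 0.00237) and Ehhadh (1.79 ± 0.51, 0.0329), both higher at 3m, a share of the list below the 14% of all tested genes. The median of this list was 0.27. Of 12 lipid droplet genes, 9 were tested and 4 were called, all higher at 3m where 14% of all tested genes were, with a median of 0.90, led by G0s2 (2.70 ± 0.43, adjusted p = 0.00546), an inhibitor of triglyceride lipase, and Mgll (1.85 ± 0.42, 0.0167), the monoacylglycerol lipase. Of 6 nuclear receptor genes, the PPARs and RXRs to which binding proteins can deliver fatty acids, 5 were tested and Rxrg alone was called, lower at 3m as were 11.1% of all tested genes. It was at 10.8 and 6.21 CPM and then at 0.453 and 0 CPM.

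Of 10 genes named as regulators of Fabp7 in neural cells, all were tested, none was called higher and 3 were called lower at 3m, against 11.1% of all tested genes. The list had a median of -0.53. Hes1 and Hes5, targets of Notch signalling, changed by -1.94 ± 0.27 (adjusted p = 0.00397) and -1.27 ± 0.20 (0.00537), and Nfix, a nuclear factor I gene, by -1.07 ± 0.19 (0.00827). Notch1 was at 132 and 153 CPM and then at 121 and 113 CPM, and Rbpj, the DNA-binding partner of Notch, at 74.8 and 76.0 and then at 48.5 and 49.5, and neither was called (adjusted p = 0.993 and 0.112).

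The sequence upstream of Fabp7 is given because some of the listed regulators are known to act on its promoter. RefSeq (GRCm38.p6) promoter windows of 300 bases, from 250 bases before to 50 after the start site, were at hand for 2 of the 3 members, Fabp7 and Fabp3. The window was searched on both strands for TTGGC, a nuclear factor I half-site, for TGGGAA, the core bound by RBPJ, and for the POU octamer ATTTGCAT. The 208 bases of the window ahead of the GENCODE gene start, chr10:57784673-57784880, plus strand, hold 1 TTGGC and 1 TGGGAA, the latter on the opposite strand, shown in capitals.
Fabp7 upstream: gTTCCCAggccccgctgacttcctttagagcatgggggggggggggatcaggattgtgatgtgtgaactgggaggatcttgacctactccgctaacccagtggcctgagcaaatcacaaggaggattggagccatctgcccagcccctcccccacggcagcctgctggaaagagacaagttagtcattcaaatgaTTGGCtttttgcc
Such short words are common, as 46.7% of 32851 windows held TTGGC and 25.6% held TGGGAA, while 1.74% held ATTTGCAT. The window of Fabp3 held none of the 3 words and that of Fabp7 no octamer. A match is a description of the letters only.

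Genes with the pattern most like a member were taken over 15 sums of a class and a library with at least 20 cells, among 8130 genes with at least 50 CPM in 1 of them, by Pearson's r of log2(CPM + 1). For Fabp7 they were Etv4, Nnat, Prdx2, Zfp428, Sox21, Gas1, Hmgb3 and Tceal8, with r from 0.93 to 0.92. For Fabp5 they were Sqle, Sgcb, Lnpk, Metrn, Tsc22d4, Cenpq, Mvd and Dvl3, with r from 0.87 to 0.84, of which Sqle and Mvd are enzymes of cholesterol synthesis. Fabp3 was under 50 CPM in all sums and was not ranked. Fabp7 and Fabp5 correlated at r = 0.64 over the same sums, which share libraries and depths.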

How the data were processed

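Counts of UMIs for each gene symbol and cell barcode were what the authors deposited, without normalization. The methods of the study state that reads were mapped to mm10 and counted with Cell Ranger, and the submitters' processing notes also name Seurat 3.1.1. The gene annotation is not given in the sources used here. Runs of a library were already merged, so the library was the replicate (2 per age). All 4245 barcodes were assigned to a library by their column prefix.

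Cells with over 10% mitochondrial UMIs or under 500 genes were removed, as was the member of a shared barcode with under 0.1 of the UMIs of the other. A cell took the class with the largest share of its markers detected, given at least 3 markers and a lead of 0.25. No doublet caller was run. CPM is the count of a gene in a sum of cells scaled to a common total. Sums of at least 10 cells were tested with edgeR 4.0.16 (quasi-likelihood, TMM, filterByExpr, R 4.3.3), adjusted over all tested genes. The main fits had 1 or 2 residual degrees of freedom, and edgeR estimates the spread of a gene with help of the other genes. Very small p-values therefore do not rest on the spread of a few pools alone. SE is the absolute estimate divided by the square root of F. Alternatives were DESeq2 1.42.0, other scalings, filters, gates and thinning depths, a replicate block and leaving out each library. The scripts were tested on simulated data. Intervals are exact at 95%, a count of 0 allows up to 3 counts, and both cover counting error only. Named genes were the members, up to 4 called genes of each list with the largest change in astroglia-like cells, the detected family members and the 8 nearest genes by correlation; Rbpj, Notch1 and the markers were named in addition, after their values were seen. Some items withheld for evaluation are not reported here. Members and lists were chosen with earlier results of these data known.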

Additional observations from a re-analysis of the deposited data

Results flagged for a closer look

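The age difference of Fabp5 was unlike in mural-like and astroglia-like cells, with an interaction of -4.08 on the log2 scale (edgeR, adjusted p = 9.22e-18, lower at 3m in both libraries of mural-like cells). That of Fabp7 was unlike in OPC-like and astroglia-like cells, with an interaction of 2.52 (adjusted p = 1.29e-08), and that of Fabp5 there was -1.42 (adjusted p = 0.0249). These 3 rest on comparisons added after the levels had been seen, and those with OPC-like cells on 2 sums of 7 cells.

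In 3m replicate 2, the 45 cells that passed the filters but were left out for a barcode shared with postnatal replicate 2 held Fabp7 at 4581 CPM (249 UMIs in 30 cells), against 152 CPM in the cells kept. They held Fabp5 at 1692 CPM against 986. Their median depth was 955 UMIs, and 8 of them were astroglia-like. Whether reads passed between these libraries was not tested. With these cells kept, the age difference of Fabp7 in astroglia-like cells was -4.84.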

How the results depend on the processing

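The call of Fabp7 held under all alternatives for astroglia-like cells (log2 fold change -5.17 to -4.65, 15 alternatives), whole libraries (-6.33 to -5.41, 11) and mural-like cells (-5.06 to -2.85, 13). Fabp5 in astroglia-like cells was called with plain totals (-1.14) and ranged from -1.09 to -0.64 when a library was left out. Fabp3 in whole libraries was not called with DESeq2 (-1.25) or with at least 1000 genes per cell (-0.88), and ranged from -1.39 to -1.08 without a library. In OPC-like cells, Fabp7 ranged from -2.45 to -1.83 and Fabp5 from -2.23 to -2.02 without a library; against astroglia-like cells, the calls of Fabp5 (-3.34) and Fabp3 (3.52) were lost without the library block. The interaction of OPC-like with astroglia-like cells ranged from 2.36 to 2.67 for Fabp7 and from -1.69 to -1.25 for Fabp5 without a library, and that of Fabp5 was lost with DESeq2 (-1.38), plain totals (-0.87) and no filter on low counts (-1.29). Fabp5 in cycling cells, not called, was 0.014 at a gate lead of 0.4. The causes were not tested.

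Replicate numbers only name the libraries, since those of the postnatal ones follow the order of deposit and no label ties them to the 3m libraries. Even so, both replicates 1 had 4 runs and both replicates 2 had 2, the replicates 2 shared 95 barcodes, and replicate differences of the ages correlated at r = 0.109 over 11708 genes. With a replicate block, Fabp7 was at -4.87 and Fabp5 at -0.85 (adjusted p = 0.102) in astroglia-like cells, where 3127 genes were called against 2946. The block changed no call of a member in the 4 age tests.

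Counts of called genes moved by over 1.5 times with DESeq2 in mural-like cells (208 against 432), OPC-like cells (247 against 551), OPC-like against astroglia-like cells (846 against 1762), cycling cells (897 against 1858) and the interactions with mural-like (331 against 664) and OPC-like cells (215 against 575). They were 826 in mural-like cells with no filter on low counts, 626 in OPC-like against astroglia-like and 929 in cycling cells without the library block, and 769 in cycling cells with a cut of 1 UMI. Without a library, they ranged from 649 (without 3m replicate 2; 1027 without 3m replicate 1) to 3969 in astroglia-like, 391 to 703 in mural-like and 0 to 572 in OPC-like cells, and from 269 to 691 and 151 to 547 for these interactions. With plain totals, 1203 genes were called higher and 2106 lower in astroglia-like cells, against 1642 and 1304. For the interactions these were 548 and 222 (mural-like, against 337 and 327) and 642 and 101 (OPC-like, against 283 and 292), and for OPC-like against astroglia-like cells 1099 and 635, against 767 and 995.

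The difference in the share of astroglia-like cells with a UMI, 3m minus postnatal, was -55.9 points for Fabp7 and -11.2 for Fabp5 at 2000 UMIs. It was -73.5 and -14.4 at 1000 UMIs, -35.8 and -4.09 at 4000 and -29.3 and -4.50 without thinning, where Fabp3 was at -2.12 against -0.37. Not run, for want of residual degrees of freedom or cells, were the age tests in OPC-like cells (at 10 cells) and endothelial-like cells. The same held for the age fit and the interaction of OPC-like cells at a lead of 0.4 and, in comparisons over 2 libraries, for leaving out a library.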
